A study of Mus musculus with 8 samples.

Results

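The 10 genes described here carry the calcium signal of the T cell receptor from the endoplasmic reticulum to the nucleus. They encode 2 calcium sensors (Stim1, Stim2), 2 channel proteins (Orai1, Orai2), 2 catalytic subunits of calcineurin (Ppp3ca, Ppp3cb), a calcineurin inhibitor (Rcan1) and 3 NFAT transcription factors (Nfatc1, Nfatc2, Nfatc3). They were chosen by name, as the rows of the deposited table with these gene symbols, and not by their values. All 10 were found among the 27179 genes of the table, and all 10 were among the 12605 genes expressed highly enough to be tested.

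RNA sequencing covered 8 libraries of splenic CD4+ T cells, 2 in each of 4 groups. The cells came from offspring of strain C.Cg-Foxp3tm2Tch/J, a Foxp3-EGFP reporter strain, aged 8 weeks, and every group carried this strain background. Parents of Cd offspring drank water with 10 ppm CdCl2 around mating, mothers also through gestation, and parents of control offspring drank unspiked water, so the exposure was that of the parents. Cells of each kind of offspring were lysed after isolation (unstimulated, 0 hours) or cultured with anti-CD3/CD28 beads for 16 hours (stimulated), which engage the T cell receptor and the costimulatory receptor CD28. The effect of the beads and that of 16 hours in culture cannot be told apart in this design. Replicate numbers 6 and 7 recur in every group. The study mated mice in pairs to keep litters independent, but the labels tie no library to an animal, so p-values measure only the spread between these libraries, which may be technical.

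When the T cell receptor empties the calcium store of the endoplasmic reticulum, STIM proteins in its membrane sense the loss and open ORAI channels in the plasma membrane. The calcium that enters binds calmodulin, which switches on the phosphatase calcineurin. Calcineurin removes phosphates from NFAT proteins, which then move into the nucleus and switch on cytokine and activation genes, a step that the drugs cyclosporin A and tacrolimus block. The mRNA levels measured here are those of the proteins that make up this route. They say nothing of calcium flux, phosphatase activity or the place of NFAT in the cell.

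Levels are given as RPKM, the reads of a gene per kilobase of its counted length, scaled to the total reads of the library. The libraries held 15542732 to 25486791 reads on genes, with a median of 19434588. The fewest reads behind any value of the 10 genes were 126, for Rcan1, and each of the other 9 had at least 393 reads in every library. The cells carried the markers of their label: the summed level of 8 T cell genes was 3571 to 3736 RPKM in unstimulated and 2382 to 2474 RPKM in stimulated libraries. Ms4a1, a defining gene of B cells, was at 0 in all 8 libraries, and the summed level of 5 B cell genes was 3.12 to 3.76 RPKM in unstimulated and 4.19 to 4.89 RPKM in stimulated libraries, with only Cd79a above 1 RPKM. A list of 6 myeloid genes, with S100a8 and S100a9 at 0 throughout, summed to 1.88 to 2.06 RPKM in unstimulated and 0.416 to 0.597 RPKM in stimulated libraries. Only Itgam was above 1 RPKM, at 1.56 to 1.85 RPKM in unstimulated libraries. The 5 CD8 T cell and NK cell genes summed to 14.6 to 16.9 RPKM in unstimulated and 10.6 to 12.4 RPKM in stimulated libraries. Most of that sum was Cd8b1, at 9.4 to 11.7 RPKM, while Cd8a was at 0.16 RPKM or less. The NK cell gene Klrb1c was at 3.15 to 4.35 RPKM in unstimulated and 0.147 to 0.293 RPKM in stimulated libraries. Klrk1 was at 1.64 to 2.22 RPKM and then at 0.176 to 0.297 RPKM, a fall that the sum with Cd8b1 does not show. Regulatory T cell genes were present as well, although the study describes conventional T cells: Foxp3 was at 4.48 to 7.69 RPKM, and the list of 5, which includes the activation genes Il2ra and Ctla4, summed to 42.5 to 52.8 RPKM in unstimulated and 331 to 370 RPKM in stimulated libraries. In bulk samples, fewer cells of a type and less RNA per cell cannot be told apart. The T cell, B cell, myeloid, CD8 and NK cell, and regulatory T cell sums moved with stimulation, and their part in the results was not tested.

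The 10 genes spanned a wide range of levels. In unstimulated cells of control offspring, the order by mean level was Nfatc3 at 94.8 RPKM, Orai2 at 56.8, Stim1 at 45.7, Ppp3cb at 36.9, Nfatc1 at 31.6, Ppp3ca at 24.5, Orai1 at 23.9, Nfatc2 at 19.1, Stim2 at 13.0 and Rcan1 at 3.01 RPKM. Of these neighbours, Ppp3ca and Orai1 overlapped between libraries and the others did not. After stimulation the order in control offspring was Nfatc3 at 69.8 RPKM, Nfatc1 at 53.5, Orai1 at 50.2, Ppp3cb at 38.3, Stim1 at 26.7, Orai2 at 20.1, Stim2 at 14.8, Nfatc2 at 14.7, Ppp3ca at 10.4 and Rcan1 at 4.21 RPKM. Here Nfatc1 and Orai1 overlapped, as did Stim2 and Nfatc2. Nfatc3 was thus the highest and Rcan1 the lowest of the 10 in both states, while Orai2 and Ppp3ca moved down the order and Orai1 and Nfatc1 moved up.

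**Figure D1:**
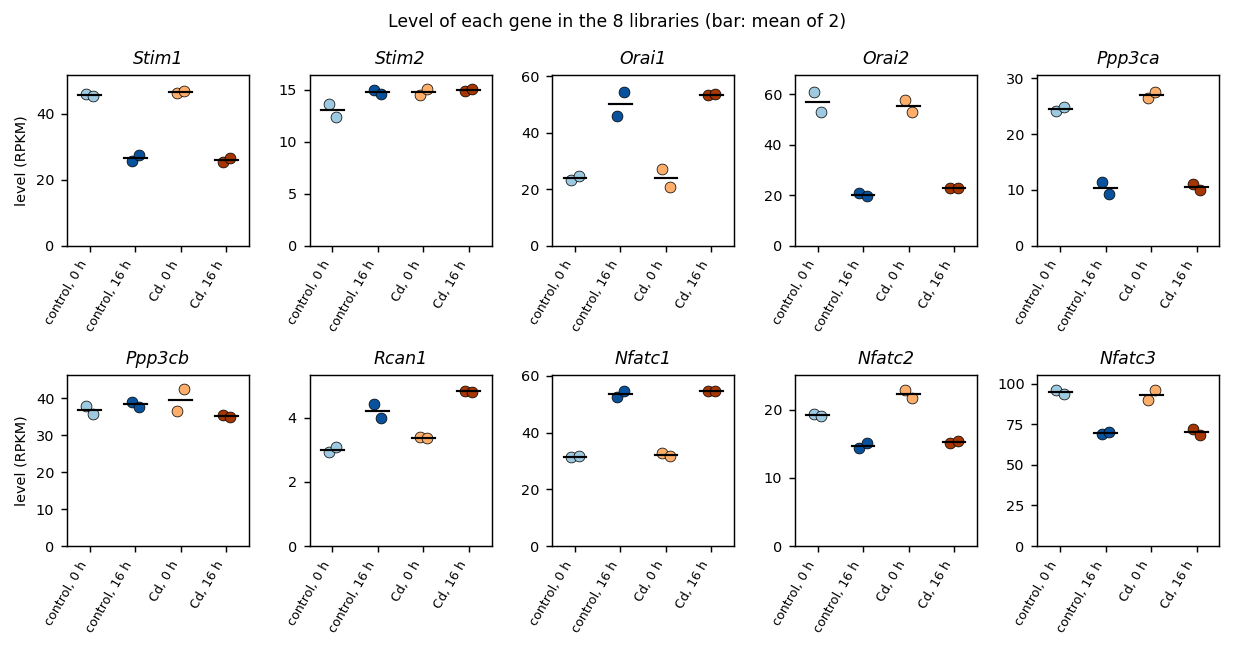
Level in RPKM (vertical axes, each starting at 0) of the 10 genes in the 8 libraries, by group along the horizontal axis; each point is 1 library and each bar the mean of 2. Stim1, Orai2, Ppp3ca, Nfatc2 and Nfatc3 sit lower in all 4 stimulated libraries, and Orai1, Rcan1 and Nfatc1 sit higher, in control as in Cd offspring. The share of all genes without overlap was not counted. With stimulation 64.8% of all genes in control and 65.9% in Cd offspring passed an adjusted p under 0.05 in limma.

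The first comparison asked how these genes responded to 16 hours of stimulation. In control offspring, the channel gene Orai1 was 2.09-fold higher, while its paralog Orai2 and the calcineurin gene Ppp3ca were 2.81-fold and 2.36-fold lower. These 3 genes passed the thresholds applied here, an adjusted p under 0.01 and a change of more than 2-fold, which the study also used beside a cut on low counts, and the same 3 passed in Cd offspring, where the changes were 2.24-fold, 2.40-fold and 2.57-fold. Of all genes tested with limma, 18.7% passed in control offspring (11.5% higher and 7.17% lower) and 18.6% in Cd offspring (11.4% higher and 7.24% lower), so 1 gene higher and 2 lower of 10 is not far from the background of this response. With an adjusted p under 0.05 and no fold threshold, 9 of 10 genes passed in control offspring (4 higher, 5 lower) against 64.8% of all genes, and 8 of 10 in Cd offspring (3 higher, 5 lower) against 65.9%. The 8 genes that passed in Cd offspring were among the 9 of control offspring, and these 8 passed at 0.05 under every alternative tried. The 2 comparisons contrast different libraries, but both come from a fit to all 8 libraries with a shared estimate of the spread. Their p-values are thus not independent. Over the 10 genes, log2 fold changes had a median of -0.16 in control and of -0.28 in Cd offspring, beside medians of 0.07 and 0.05 over all genes tested. Log2 fold changes here and below are on the scale of log2(RPKM + 0.1).

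**Figure D2:**
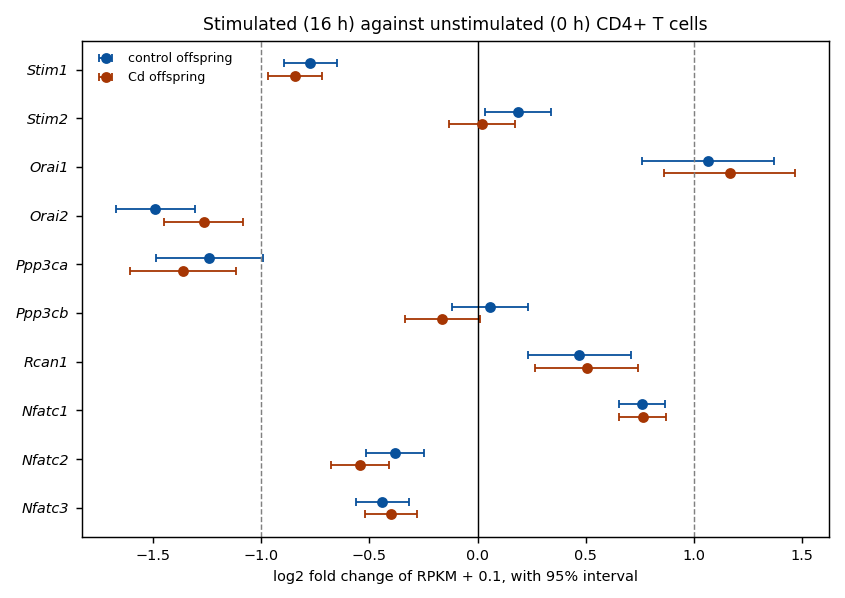
Log2 fold change of RPKM + 0.1 in stimulated against unstimulated cells (horizontal axis) for the 10 genes, in control and Cd offspring; points are limma estimates from 2 libraries per group, whiskers 95% intervals, and dashed lines mark 2-fold. Orai2 and Ppp3ca lie beyond 2-fold below and Orai1 beyond it above, and the intervals of Ppp3cb include 0 in both.

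Stim1 encodes the main calcium sensor of the endoplasmic reticulum in T cells, and Stim2 a more sensitive sensor of small losses. Stim1 (chr7:102261514-102437319, GRCm38.p6) was measured at 46.0 and 45.3 RPKM in unstimulated and at 25.8 and 27.5 RPKM in stimulated cells from control offspring. In Cd offspring the values of Stim1 were 46.4 and 47.0 RPKM in unstimulated and 25.4 and 26.6 RPKM in stimulated cells. All 4 stimulated libraries were thus well below all 4 unstimulated ones. Stimulation gave a log2 fold change of -0.77 ± 0.05 (SE) in control and -0.84 ± 0.05 in Cd offspring, with adjusted p = 1.01e-05 and adjusted p = 6.87e-06 in limma, short of 2-fold in both. In Cd offspring it passed 2-fold by quantile normalization alone, at -1.001.

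Stim2 (chr5:53998523-54121057) moved less than Stim1. Its values in control offspring were 13.6 and 12.4 RPKM in unstimulated and 15 and 14.6 RPKM in stimulated cells, and in Cd offspring 14.5 and 15.1 RPKM, then 14.9 and 15.1 RPKM. The stimulated libraries were the higher ones in control offspring, and the groups overlapped in Cd offspring. In the fit the log2 fold change was 0.19 ± 0.07 in control offspring (limma, adjusted p = 0.0366, between 0.0245 and 0.455 over the alternatives) and 0.02 ± 0.07 in Cd offspring (adjusted p = 0.817). With median-of-ratios scaling the value in Cd offspring was -0.04.

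Orai1 encodes the subunit of the calcium release-activated calcium channel that T cells depend on for sustained entry, and Orai2 a subunit that can join the same channel and lowers its current. Orai1 (chr5:123015074-123030452) was measured at 23.2 and 24.6 RPKM in unstimulated and at 46.0 and 54.4 RPKM in stimulated cells from control offspring. In Cd offspring Orai1 was at 27.3 and 20.7 RPKM and then at 53.2 and 53.7 RPKM. No unstimulated library reached the level of a stimulated one, although the pairs of stimulated control and of unstimulated Cd libraries lay well apart from each other. The log2 fold change was 1.06 ± 0.13 in control offspring (limma, adjusted p = 0.000227) and 1.17 ± 0.13 in Cd offspring (adjusted p = 0.000138). The 2-fold call in control offspring was lost with median-of-ratios scaling (0.99), with quantile normalization (0.90) and without stimulated control replicate 7 (0.95), and the call in Cd offspring was lost without unstimulated Cd replicate 7 (0.97). The highest adjusted p of any alternative in control offspring was 0.00278.

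Orai2 (chr5:136147456-136170697) went the other way. Its values in control offspring were 60.7 and 52.8 RPKM in unstimulated and 20.7 and 19.5 RPKM in stimulated cells, and in Cd offspring 57.5 and 52.9 RPKM, then 22.8 and 23.0 RPKM. No stimulated library was above 23.0 RPKM and no unstimulated one below 52.8 RPKM. Stimulation gave a log2 fold change of -1.49 ± 0.08 in control offspring (limma, adjusted p = 2.93e-06) and -1.26 ± 0.08 in Cd offspring (adjusted p = 6.60e-06), and the call held under all 19 alternatives in both.

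Because Orai1 and Orai2 moved in opposite directions, the RefSeq windows around their starts are shown side by side. Each runs from 250 bases before to 50 bases after the annotated start (GRCm38.p6) and is written 5′ to 3′ on the strand of the gene. The Orai1 window is chr5:123014824-123015123 on the plus strand and the Orai2 window is chr5:136170607-136170906 on the minus strand. Capitals mark GGAAA, the core that NFAT proteins bind, or TTTCC, the same core on the other strand.
Orai1: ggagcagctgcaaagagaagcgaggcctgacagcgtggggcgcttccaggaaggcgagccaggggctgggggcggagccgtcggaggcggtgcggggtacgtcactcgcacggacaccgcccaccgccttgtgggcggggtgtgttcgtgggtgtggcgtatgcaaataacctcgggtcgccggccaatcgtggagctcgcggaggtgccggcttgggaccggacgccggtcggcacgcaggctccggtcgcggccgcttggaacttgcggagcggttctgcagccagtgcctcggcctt
Orai2: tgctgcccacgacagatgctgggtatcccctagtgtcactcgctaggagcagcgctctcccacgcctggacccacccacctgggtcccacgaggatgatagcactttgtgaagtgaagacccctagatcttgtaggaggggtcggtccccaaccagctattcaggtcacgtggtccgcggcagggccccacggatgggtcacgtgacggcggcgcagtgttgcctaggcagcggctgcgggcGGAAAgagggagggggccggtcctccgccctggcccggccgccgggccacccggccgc
Both windows were rich in CpG, with 36 CpG in Orai1 and 24 in Orai2, beside a median of 7 over the 32851 RefSeq windows of the same length. Orai1 held no GGAAA on either strand, as did 38.7% of all windows, and Orai2 held 1, where 61.3% of all windows had at least 1. A match is a description of these letters and not of binding, and its absence says only that the letters are not in this window.

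Calcineurin consists of a catalytic subunit, encoded by Ppp3ca, Ppp3cb or Ppp3cc, and a regulatory subunit. Ppp3ca (chr3:136669714-136937727) was measured at 24.2 and 24.8 RPKM in unstimulated and at 11.5 and 9.23 RPKM in stimulated cells of control offspring, and at 26.5 and 27.5 RPKM, then 11 and 9.96 RPKM, in Cd offspring. The stimulated and unstimulated libraries were far apart, with no overlap. In the fit the log2 fold change was -1.24 ± 0.105 in control offspring (limma, adjusted p = 3.23e-05) and -1.36 ± 0.105 in Cd offspring (adjusted p = 2.06e-05), a call that held under all 19 alternatives in both. The counted length of Ppp3ca, 2194 nt, equals that of the GENCODE transcript Ppp3ca-201, whereas the longest GENCODE transcript of the gene, Ppp3ca-202, has 4758 nt, so the level rests on the shorter model.

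Ppp3cb (chr14:20499364-20546573) did not pass the test in either kind of offspring. It was measured at 37.9 and 35.8 RPKM in unstimulated and at 39.0 and 37.6 RPKM in stimulated cells of control offspring, and at 36.6 and 42.5 RPKM, then 35.4 and 35.0 RPKM, in Cd offspring. The groups overlapped in control offspring, and in Cd offspring the stimulated libraries were the lower ones. The log2 fold change was 0.06 in control offspring, with a 95% interval of -0.12 to 0.23 (limma, adjusted p = 0.530), and -0.16 in Cd offspring, with an interval of -0.34 to 0.01 (adjusted p = 0.0909, between 0.00549 and 0.445 over the alternatives). The value in control offspring turned to -0.02 with median-of-ratios scaling. Ppp3cb overlaps the gene 1810062O18Rik in the annotation, and Nfatc3, Rcan1, Stim1, Stim2 and Nfatc1 each overlap another gene too. The strand setting of the counting is not given in the sources used here, so reads of such neighbours may not be told apart.

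Among the other calcineurin genes, the remaining catalytic gene Ppp3cc was at 35.6 RPKM in unstimulated and 21.5 RPKM in stimulated cells of control offspring (means of 2 libraries), a log2 fold change of -0.73 (limma, adjusted p = 0.000512). The regulatory subunit gene Ppp3r1 was at 60.6 and 61.7 RPKM, a log2 fold change of 0.03 (adjusted p = 0.745).

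Rcan1 encodes a regulator that binds calcineurin and inhibits it, and it is known from other work as a gene that calcineurin and NFAT themselves switch on. Rcan1 (chr16:92391951-92466169) had the lowest level of the 10 genes. It was measured at 2.93 and 3.08 RPKM in unstimulated and at 4.44 and 3.98 RPKM in stimulated cells of control offspring, and at 3.39 and 3.36 RPKM, then 4.85 and 4.82 RPKM, in Cd offspring. All stimulated libraries were above all unstimulated ones, from 126 to 308 reads per library. Stimulation gave a log2 fold change of 0.47 ± 0.10 in control offspring (1.39-fold, limma, adjusted p = 0.00455) and 0.51 ± 0.10 in Cd offspring (1.42-fold, adjusted p = 0.00322), short of 2-fold in both.

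RefSeq gives Rcan1 a distal start and an internal start, and the internal one is the start known from other work to respond to calcineurin. Both windows are shown because their letters differ in the 2 motifs searched, GGAAA on both strands and TGANTCA, the core of the AP-1 site that often lies beside NFAT sites. The distal window is chr16:92466120-92466419 and the internal window chr16:92400029-92400328, both on the minus strand of GRCm38.p6, and capitals mark a match to either motif, on either strand.
Rcan1 distal: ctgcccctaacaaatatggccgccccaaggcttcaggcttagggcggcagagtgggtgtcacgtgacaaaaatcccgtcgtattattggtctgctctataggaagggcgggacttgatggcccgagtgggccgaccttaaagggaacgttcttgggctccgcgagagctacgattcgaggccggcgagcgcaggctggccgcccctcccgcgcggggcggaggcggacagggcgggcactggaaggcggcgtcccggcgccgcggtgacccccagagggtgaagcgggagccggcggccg
Rcan1 internal: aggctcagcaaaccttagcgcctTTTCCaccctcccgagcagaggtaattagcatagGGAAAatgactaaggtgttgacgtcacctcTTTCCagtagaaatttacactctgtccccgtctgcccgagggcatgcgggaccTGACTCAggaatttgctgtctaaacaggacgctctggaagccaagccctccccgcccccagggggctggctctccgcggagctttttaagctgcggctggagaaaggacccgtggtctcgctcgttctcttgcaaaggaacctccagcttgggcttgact
The distal window held neither motif and 33 CpG. The internal window held 3 GGAAA cores and 1 TGANTCA, which do not overlap one another, and 14 CpG. Of all 32851 windows, 9.42% held at least 3 GGAAA, 7.81% held a TGANTCA and 0.837% held both. The deposited values are per gene, so they do not tell from which of the starts the Rcan1 reads came. Windows of 8 of the 10 genes, 11 in all, were searched, and 6 of the 11 held a GGAAA, with the most, 4, in Ppp3cb. Nfatc1 and Ppp3ca were not searched, so these counts leave them out.

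NFAT proteins bind DNA next to other activators, and activated T cells use Nfatc1, Nfatc2 and Nfatc3. Nfatc3 (chr8:106058818-106130537) had the highest level. It was measured at 96.2 and 93.4 RPKM in unstimulated and at 69.1 and 70.5 RPKM in stimulated cells of control offspring, and at 89.8 and 95.8 RPKM, then 72.0 and 68.5 RPKM, in Cd offspring. All stimulated libraries were lower. In the fit the log2 fold change was -0.44 ± 0.05 in control (limma, adjusted p = 0.000185) and -0.40 ± 0.05 in Cd offspring (adjusted p = 0.000314), or 1.36-fold and 1.32-fold lower.

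Nfatc2 (chr2:168476410-168601657), which encodes an NFAT protein present in resting T cells, was lower as well. Its values in control offspring were 19.3 and 19.0 RPKM in unstimulated and 14.3 and 15.1 RPKM in stimulated cells, and in Cd offspring 22.8 and 21.7 RPKM, then 15.1 and 15.4 RPKM. The stimulated libraries again lay below the unstimulated ones without overlap. The log2 fold change was -0.38 ± 0.06 in control (limma, adjusted p = 0.000702) and -0.54 ± 0.06 in Cd offspring (adjusted p = 0.000106), or 1.30-fold and 1.46-fold lower.

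Nfatc1 (chr18:80606205-80713071), whose transcription NFAT is known to raise in activated T cells, was the NFAT gene that was higher. It was measured at 31.3 and 31.8 RPKM in unstimulated and at 52.6 and 54.5 RPKM in stimulated cells of control offspring, and at 32.7 and 31.6 RPKM, then 54.5 and 54.7 RPKM, in Cd offspring. The 4 libraries of each state lay close together and the states were far apart. Stimulation gave a log2 fold change of 0.76 ± 0.05 in both control (limma, adjusted p = 5.68e-06) and Cd offspring (adjusted p = 5.79e-06), or 1.69-fold and 1.70-fold higher, and it stayed below 2-fold under all 19 alternatives.

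Since RPKM is scaled by length, the paralogs of each step can be compared within a library, where the total of the library cancels. Each ratio still rests on the counted lengths, such as 2194 nt for Ppp3ca, its shorter model, and 3881 nt for Ppp3cb. The same holds for the shares given below. The ratio of Orai1 to Orai2 was 0.382 to 0.474 in the 4 unstimulated and 2.22 to 2.79 in the 4 stimulated libraries. This was a 5.66-fold difference on average and a change in which gene was the higher by RPKM. The ratio of Nfatc1 to Nfatc2 was 1.43 to 1.68 in unstimulated and 3.55 to 3.68 in stimulated libraries, 2.34-fold higher. The ratio of Ppp3ca to Ppp3cb was 0.638 to 0.726 in unstimulated and 0.245 to 0.31 in stimulated libraries, 2.39-fold lower, and that of Stim1 to Stim2 was 3.12 to 3.64 and then 1.71 to 1.89, 1.88-fold lower. None of the 4 ratios overlapped between states. The share of other gene pairs that do the same was not counted, and 64.8% of all genes passed an adjusted p under 0.05 in limma with stimulation in control offspring. A two-sided exact permutation test of 4 against 4 libraries gave p = 0.0286 for each ratio, the smallest p that this design allows, and 0.0286 after adjustment over the 4 ratios. The test pools control and Cd offspring and treats the 8 libraries as independent. Each ratio holds a gene already seen above to differ between the states without overlap. These p-values thus add no support beyond the results of the single genes. With libraries paired by exposure and number, an exact sign-flip permutation test gave p = 0.125 for each ratio, the smallest that 4 pairs allow.

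Put as shares of a family, Orai1 made up 25.4% to 30.0% of the summed RPKM of Orai1, Orai2 and Orai3 in unstimulated and 62.9% to 68.0% in stimulated libraries. Nfatc1 made up 21.2% to 22.5% of the sum of Nfatc1, Nfatc2 and Nfatc3 in unstimulated and 38.5% to 39.4% in stimulated libraries, and Nfatc3 remained the largest share, at 49.4% or more. The NFAT sum itself was 144 to 149 RPKM in unstimulated and 136 to 142 RPKM in stimulated libraries. Ppp3cb made up 37.2% to 39.8% of the 3 catalytic calcineurin genes before and 52.8% to 56.6% after stimulation, while their sum went from between 95.5 and 107 RPKM to between 64.3 and 73.9 RPKM. The largest shifts in share were thus those of the channel genes.

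**Figure D3:**
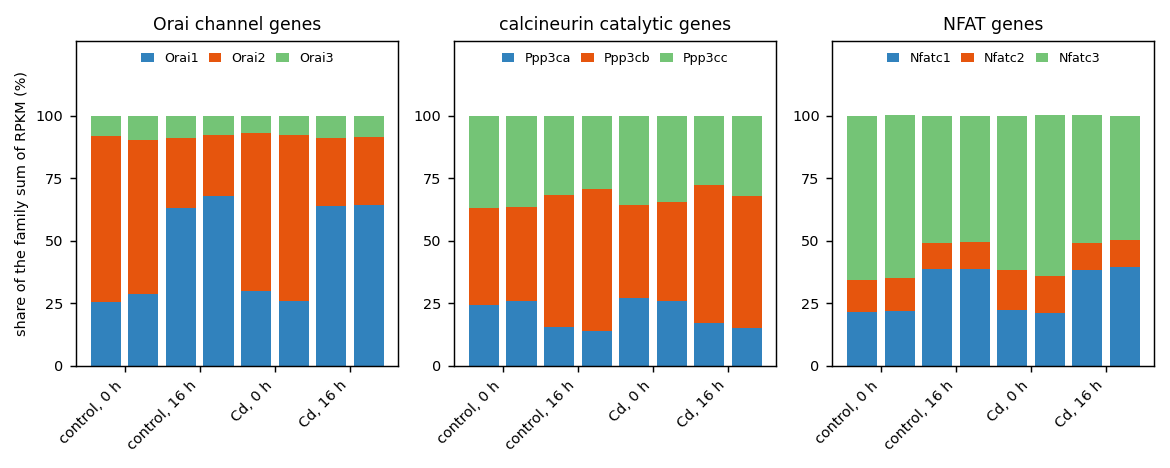
Share (percent, vertical axis) of each gene in the summed RPKM of its family, for Orai channel genes, catalytic calcineurin genes and NFAT genes; each bar is 1 library, in pairs by group. Orai1 grows from 30.0% or less to 62.9% or more with stimulation, in control as in Cd offspring, while Orai3 overlaps between the states.

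The second question was whether the offspring of Cd-exposed parents differed in these genes. In unstimulated cells, 0 of the 10 genes passed an adjusted p under 0.05 in limma, where 0.896% of all genes passed, and 0 passed by limma voom on the recovered reads. At an unadjusted p under 0.05 there were 2 of 10 genes, Nfatc2 and Stim2, beside 1748 of the 12605 genes tested. Nfatc2 was at 22.8 and 21.7 RPKM in Cd and at 19.3 and 19.0 RPKM in control offspring, a log2 difference of 0.22 with a 95% interval of 0.08 to 0.35 (limma, unadjusted p = 0.00629, adjusted p = 0.178, between 0.0737 and 0.468 over the alternatives). Stim2 was at 14.5 and 15.1 RPKM in Cd and at 13.6 and 12.4 RPKM in control offspring, a log2 difference of 0.18 with an interval of 0.03 to 0.34 (limma, unadjusted p = 0.0242, adjusted p = 0.293). In both genes the Cd libraries were the higher ones without overlap, a pattern whose share over all genes was not counted. The other 8 genes had intervals that include 0, the widest that of Orai1, from -0.31 to 0.30, and the narrowest that of Nfatc1, from -0.08 to 0.13.

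In stimulated cells, 0 of the 10 genes passed in limma or in limma voom, and 0% of all genes passed in limma, with 414 of 12605 at an unadjusted p under 0.05. Orai2 was the 1 member with an unadjusted p under 0.05: it was at 22.8 and 23.0 RPKM in Cd and at 20.7 and 19.5 RPKM in control offspring, a log2 difference of 0.19 with an interval of 0.01 to 0.37 (limma, unadjusted p = 0.0444, adjusted p = 1). Rcan1 was at 4.85 and 4.82 RPKM in Cd and at 4.44 and 3.98 RPKM in control offspring, a log2 difference of 0.20 with an interval of -0.04 to 0.435 (limma, unadjusted p = 0.092). The Cd libraries were the higher ones in both genes, again with the share over all genes not counted. For Nfatc1 the log2 difference was 0.03, with an interval of -0.079 to 0.135.

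The difference in response, that is the stimulation effect in Cd offspring minus that in control offspring, was tested with an interaction contrast. None of the 10 genes passed in limma or limma voom, where 0.357% of all genes passed in limma, and 0 of 10 had an unadjusted p under 0.05, beside 1332 of 12605 genes. The lowest adjusted p was 0.519. The largest estimates were 0.23 for Orai2, whose decrease was smaller in Cd offspring, with an interval of -0.03 to 0.48, and -0.22 for Ppp3cb, with an interval of -0.47 to 0.03. For Nfatc1 the estimate was 0.00, with an interval of -0.148 to 0.155. These 3 Cd comparisons share libraries with each other and with the stimulation comparisons.

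**Figure D4:**
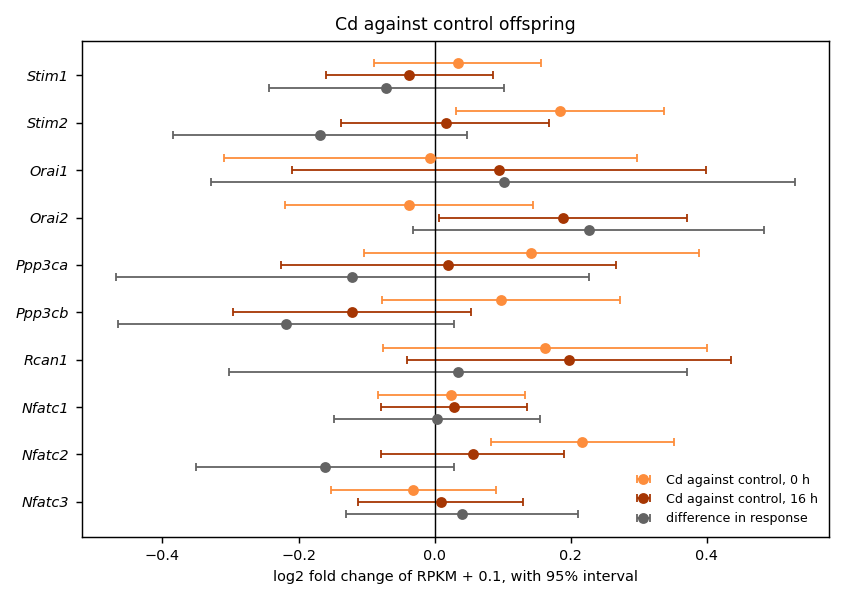
Log2 difference of RPKM + 0.1 between Cd and control offspring (horizontal axis) in unstimulated cells, in stimulated cells, and the difference in response, for the 10 genes; points are limma estimates from 2 libraries per group and whiskers 95% intervals. All estimates lie between -0.22 and 0.23, and most intervals include 0.

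The rest of the pathway was followed in 6 lists of 84 symbols: store release and entry, calcium clearance, other channels, calmodulin and its kinases, calcineurin regulation and NFAT regulation. Of these, 81 were in the table under the symbol listed and 65 were expressed highly enough to be tested. With stimulation 12 of the 65 passed in control offspring (3 higher, 9 lower) and 11 in Cd offspring (2 higher, 9 lower), beside 18.7% and 18.6% of all genes, and their median log2 fold changes were -0.13 and -0.08, beside the 0.07 and 0.05 of all genes. At an adjusted p under 0.05 with no fold threshold, 49 and 45 of the 65 passed, beside 64.8% and 65.9% of all genes. In the 3 Cd comparisons 0 of the 65 passed in limma or limma voom, with 5 in unstimulated cells, 1 in stimulated cells and 6 for the difference in response at an unadjusted p under 0.05, beside 1748, 414 and 1332 of the 12605 genes tested.

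Of 11 store release and entry genes tested, 3 fell and 1 rose past both thresholds in control offspring, beside 7.17% and 11.5% of all genes. In Cd offspring 3 fell and 0 rose, beside 7.24% and 11.4%. At an adjusted p under 0.05 with no fold threshold, 9 were lower and 1 higher in control offspring, beside 64.8% of all genes either way. In Cd offspring 7 were lower and 1 higher, beside 65.9%. The median was -0.64 in control offspring, beside 0.07 over all genes, and -0.69 in Cd offspring, beside 0.05. Saraf, which encodes a protein that limits STIM-driven entry, went from 254 ± 8.09 RPKM (SD, n = 2) to 96.3 ± 1.67 RPKM in control offspring, a log2 fold change of -1.39 (limma, adjusted p = 5.9e-07). Itpr3 and Itpr2, which encode inositol trisphosphate receptors that release the store, fell by 1.15 and 1.12 on the log2 scale. Sept7, which encodes a septin, rose by 1.13 in control offspring and was at 0.96, short of 2-fold, in Cd offspring.

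Of 12 calcium clearance genes tested, 1 rose and 1 fell past both thresholds in each kind of offspring, where 11.5% and 7.17% of all genes did so in control offspring, and they were the pumps that refill the endoplasmic reticulum. Atp2a2 went from 26.8 ± 0.111 RPKM (SD, n = 2) to 68.8 ± 1.61 RPKM in control offspring, a log2 fold change of 1.36 (limma, adjusted p = 1.39e-06). Atp2a3, the form typical of blood cells, went from 109 ± 2.42 to 43.1 ± 1.65 RPKM, a log2 fold change of -1.33 (adjusted p = 2.12e-06). At an adjusted p under 0.05 with no fold threshold, 5 of the 12 were higher and 1 lower in control offspring, and 4 higher and 2 lower in Cd offspring, beside 64.8% and 65.9% of all genes in either direction. Like the Orai genes, these paralogs moved in opposite directions, and Atp2a3 was the higher before and Atp2a2 the higher after stimulation.

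Of 10 other channel genes tested, 3 fell and 0 rose past the thresholds in limma and in limma voom, while 7 in control offspring passed an unadjusted p under 0.05. Of all 12605 genes, 7.17% fell and 11.5% rose past both thresholds there, and 8542 had an unadjusted p under 0.05. The largest decrease was that of P2rx7, a channel opened by extracellular ATP, from 8.54 ± 0.354 to 0.951 ± 0.0296 RPKM in control offspring, a log2 fold change of -3.04 (limma, adjusted p = 1.79e-06), or -2.29 with a pseudocount of 1. Cacnb1, a subunit of voltage-gated calcium channels, and Trpv2 fell by 1.15 and 1.02. The Trpv2 call in control offspring and the Cacnb1 call in Cd offspring each held under 15 of 19 alternatives. The potassium channel gene Kcnn4, the highest of the list with a mean of 105 RPKM, had a log2 fold change of -0.01 (adjusted p = 0.945).

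Of 11 calmodulin and kinase genes, 8 were lower and 2 higher at an adjusted p under 0.05 in control offspring, beside 64.8% of all genes either way. In Cd offspring 6 were lower and 1 higher, beside 65.9%. The same 1 gene passed both thresholds in each, beside 18.7% and 18.6% of all genes. That gene was Camk2b, at 2.72 ± 0.0511 RPKM in unstimulated and 0.886 ± 0.0723 RPKM in stimulated cells of control offspring, a log2 fold change of -1.52 (limma, adjusted p = 0.000302). With a pseudocount of 1 it was at -0.98 in control and -0.84 in Cd offspring, short of 2-fold in both. Of 9 calcineurin regulation genes, only Tesc, which encodes a calcineurin-related calcium-binding protein, passed, at -1.36 in control and -1.26 in Cd offspring. Fkbp1a, which encodes the protein that tacrolimus binds, was the highest of that list and sat at the threshold, with 77.5 RPKM in unstimulated and 155 RPKM in stimulated cells of control offspring and a log2 fold change of 0.999, short of 2-fold.

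Of 12 NFAT regulation genes, 1 passed both thresholds in each kind of offspring, beside 18.7% and 18.6% of all genes. At an adjusted p under 0.05 with no fold threshold, 6 were higher and 4 lower in each, beside 64.8% and 65.9% of all genes. Nfat5, the NFAT relative that does not respond to calcineurin, rose by 1.28 on the log2 scale in control offspring (limma, adjusted p = 1.45e-06). In Cd offspring Nfat5 was at 0.98, short of 2-fold. The gene that passed in Cd offspring instead was Homer3, named after its value was seen, at 1.10 in Cd offspring, a call that held under 17 of 19 alternatives, and 0.75 in control offspring. Neither gene passed the test of the difference in response (limma, adjusted p = 0.256 for Nfat5 and 0.595 for Homer3). Csnk1a1, a casein kinase that can phosphorylate NFAT and the highest of the list, had log2 fold changes of 0.14 (adjusted p = 0.0682) and -0.02 (adjusted p = 0.796). Nfatc4 was at 0.0384 RPKM or less in every library and was not tested.

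A list of 18 genes known as NFAT targets in T cells was followed as well, with 15 tested. Past both thresholds, 10 rose and 1 fell in control offspring, beside 11.5% and 7.17% of all genes, and 11 rose and 1 fell in Cd offspring, beside 11.4% and 7.24%, with median log2 fold changes of 2.04 and 2.01. Irf4, a transcription factor of activated lymphocytes, went from 2.64 ± 0.298 to 543 ± 25.7 RPKM in control offspring, a log2 fold change of 7.63 (limma, adjusted p = 7.74e-08). Il2, the T cell growth factor, and Il2ra, a subunit of its receptor, rose by 6.20 and 5.76 in control offspring. The Il2 value rests on 12 and 8 reads in the unstimulated libraries and was 5.03 with a pseudocount of 1. Ifng fell by 1.44 in control and by 1.87 in Cd offspring, from 8.30 ± 1.03 to 2.98 ± 0.0655 RPKM in control offspring, where the call held under 16 of 19 alternatives. These genes also respond to other pathways of the stimulated T cell, and the list was not used to infer NFAT activity.

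**Figure D5:**
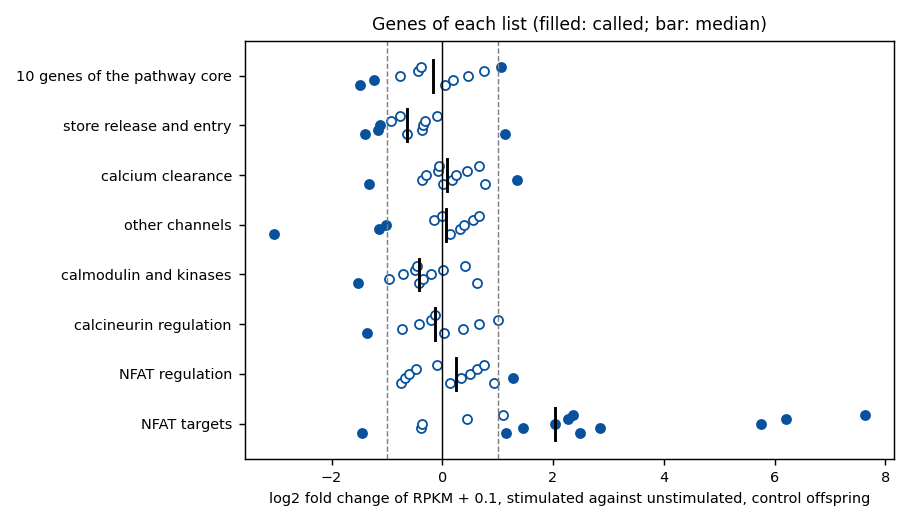
Log2 fold change of RPKM + 0.1 in stimulated against unstimulated cells of control offspring (horizontal axis) for each tested gene, with 1 row for the 10 genes and 1 for each list; filled points passed both thresholds, short bars are medians and dashed lines mark 2-fold. The 15 tested NFAT targets reach 7.63 for Irf4, while the genes of the pathway itself stay between -3.04 and 1.36.

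In unstimulated cells 1 target, Il2, passed between Cd and control offspring, at 0.271 and 0.308 RPKM in Cd and 0.703 and 0.517 RPKM in control offspring. The log2 difference was -0.86 (limma, adjusted p = 0.0409), but it rested on 5 and 6 reads against 12 and 8, and the call held under 3 of 18 alternatives, limma voom on the reads not being one of them. Il2 entered this test only through its stimulated libraries, since the filter asked for a mean of 0.5 RPKM over all 8 libraries. Its means were 0.61 and 0.29 RPKM in unstimulated control and Cd cells, and 51.6 and 45.5 RPKM in stimulated ones. In stimulated cells Il2 was at 43.9 and 47.2 RPKM in Cd and at 53.0 and 50.2 RPKM in control offspring, and the difference of -0.18 did not pass (adjusted p = 1).

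The genes whose levels were most like each member over the 8 libraries were found by Pearson's r of log2(RPKM + 0.1) among 8681 genes with a mean of at least 5 RPKM. This is a description of 8 libraries in 2 states that share one large difference, with no test. For Nfatc1 they were Ipo4 (r = 0.9996) and Nutf2-ps1, and 2384 genes had an r of at least 0.95. For Orai1 they were Sec31a (r = 0.9978) and Pom121, with 1841 genes at 0.95 or more. Orai2 was most like Sit1 (r = 0.9987) and Rab33b, with 1544 such genes, Stim1 most like Zscan2 (r = 0.9987) and Mob3a, with 1589, and Ppp3ca most like Ift80 (r = 0.9996) and Themis, with 1422. Nfatc3 was most like Acaa2 (r = 0.9991) and Nfe2l2, with 1390 such genes, and Nfatc2 most like Snora31 (r = 0.9885) and Rbms1, with 440. Rcan1, with the fewest reads, was most like Ppp1r10 (r = 0.9843) and Gm12696, with 72 such genes. Ppp3cb and Stim2, the genes that moved least, had 1 such gene each, Zfx for Ppp3cb (r = 0.9635) and Mterf3 for Stim2 (r = 0.9567), followed by Zfp955a and Ppwd1.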

How the data were processed

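RNA was sequenced from 8 libraries, and their groups and replicate numbers come from the sample labels. Reads were aligned by the authors with subread to the mouse build mm10, and featureCounts assigned them to RefSeq transcripts (versions, strand setting and treatment of multiple alignments are not given in the sources used here). The deposited table holds log2 values, each the log2 of RPKM + 1 with 0.0001 added, where the authors scaled RPKM by length and library total. Tests had been planned for RPKM, so the values were transformed back. From the steps between low values, whole reads could be recovered for 99.99% of the genes above 0 (tolerance 0.001 reads), and with them counted lengths and totals.

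A gene was tested if its RPKM averaged 0.5 or more over the 8 libraries. The fit used log2(RPKM + 0.1) in limma 3.58.1 under R 4.3.3, with a mean for each of the 4 groups, an empirical Bayes trend, 4 residual degrees of freedom and Benjamini-Hochberg adjustment over all genes tested. Calls of stimulation needed an adjusted p under 0.01 beside a change over 2-fold, and Cd calls an adjusted p under 0.05. Paralog ratios were compared with an exact permutation test, which for 2 against 2 libraries cannot go below p = 0.333. The fit was tested on simulated data. All 10 members were named in every comparison; of each list, the up to 3 called genes with the largest change in each direction (control offspring, averaging 1 RPKM or more), any gene called in a Cd comparison and the gene with the highest mean; and for likeness the 2 genes with the highest r. Results of some named or marker genes are not reported here. The members and lists were chosen with earlier results of these data known, so no pattern here is independent support. Positions and promoter windows are those of RefSeq on GRCm38.p6, and transcript lengths come from GENCODE vM21. Stimate and Septin7 were also listed as Tmem110 and Sept7, their symbols in the table, and Mcub was not matched. Alternatives tried were a pseudocount of 0.5 or 1, the filter removed or raised to 1 RPKM, median-of-ratios scaling, quantile normalization, no trend, limma voom on recovered reads, 2 replicate blocks, only the 4 libraries of a comparison, and each library left out in turn.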

Additional observations from a re-analysis of the deposited data

How the results depend on the processing

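Among the members, the 3 stimulation calls moved to 9 (control) and 8 (Cd offspring) at an adjusted p under 0.05 with no fold threshold, and those of the pathway lists to 49 and 45. Quantile normalization moved the median of all genes in control offspring from 0.07 to -0.03. The 1 NFAT target called between Cd and control unstimulated cells, Il2, became 0 with pseudocounts of 0.5 and 1, no filter, quantile normalization, no trend, the replicate block by number and only the 4 libraries, and 0 to 1 with 1 library left out. By voom the target called was Cd69 instead, which the main fit did not call. Unstimulated Cd69 was at 116 and 106 RPKM in Cd and at 156 and 136 RPKM in control offspring, on 3523 to 4534 reads. Signs turned in values that were not called. With median-of-ratios scaling Ppp3cb with stimulation in control offspring was -0.02 and Stim2 in Cd offspring -0.039; with quantile normalization these were -0.115 and -0.100, Nfatc3 and Orai1 between unstimulated Cd and control cells 0.009 and 0.000, and the Nfatc1 difference in response -0.001. With 1 library left out, values of Cd against control in unstimulated cells ranged from -0.001 to 0.050 for Nfatc1, -0.078 to 0.016 for Nfatc3, -0.204 to 0.191 for Orai1, -0.138 to 0.063 for Orai2 and -0.010 to 0.204 for Ppp3cb; in stimulated cells from -0.027 to 0.044 for Nfatc3, -0.025 to 0.215 for Orai1, -0.138 to 0.178 for Ppp3ca, -0.083 to 0.009 for Stim1 and -0.003 to 0.035 for Stim2; for the difference in response from -0.022 to 0.028 for Nfatc1, -0.007 to 0.087 for Nfatc3, -0.096 to 0.299 for Orai1, -0.280 to 0.037 for Ppp3ca and -0.043 to 0.112 for Rcan1; and with stimulation from -0.009 to 0.046 for Stim2 and -0.049 to 0.012 for Csnk1a1 in Cd, and -0.068 to 0.054 for Kcnn4 in control offspring. The causes were not tested. The log2 paralog ratios kept their values as paired differences by exposure and number (1.227 for Nfatc1 over Nfatc2, -1.255 for Ppp3ca over Ppp3cb, -0.915 for Stim1 over Stim2, 2.5 for Orai1 over Orai2), with an adjusted p of 0.125 in an exact sign-flip permutation test, the smallest that 4 pairs allow. With 1 library left out they ranged from 1.192 to 1.267, -1.299 to -1.187, -0.946 to -0.872 and 2.430 to 2.551, where the fewer libraries allow no smaller p than 0.0571. Libraries of the same number did not deviate together (r between -0.112 and 0.0635 over 12605 genes), so the numbers were not used as pairs; with the replicate block by number or by exposure and number the members called stayed at 3 with stimulation and 0 with Cd, and Stim2 no longer passed 0.05 in control offspring. Over all genes, the 113 called between unstimulated Cd and control cells became 65 with no filter, 14 with no trend, 211 by voom and 52 with only the 4 libraries, 19 and 67 without unstimulated control replicates 6 and 7, and 61 without either stimulated Cd library. The 45 of the difference in response became 28 with no filter, 4 with no trend, 111 by voom, 25 with the block by exposure and number, 27 without unstimulated control replicate 6, 3 and 28 without stimulated control replicates 6 and 7, and 2 without stimulated Cd replicate 7. The 0 between stimulated cells became 9 with no filter, 2 with no trend, 2 without either unstimulated control library and 3 without stimulated control replicate 7. Members called were 0 in all of these. With 2 libraries a group, small differences cannot be shown, and Il2 before stimulation is limited by its 5 to 12 reads.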

Other observations

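Orai3, the remaining channel gene, was named after its values were seen. In control offspring it was at 7.44 and 8.21 RPKM in unstimulated and at 6.48 and 6.13 RPKM in stimulated cells, a log2 fold change of -0.31 (limma, adjusted p = 0.0138). In Cd offspring it was at 6.22 RPKM in both unstimulated libraries and at 7.41 and 7.06 RPKM in stimulated cells, a log2 fold change of 0.21 (adjusted p = 0.0548). The libraries thus moved in opposite directions in the 2 kinds of offspring, on 201 to 359 reads, but the difference in response of 0.52 did not pass the interaction test (limma, unadjusted p = 0.00286, adjusted p = 0.190), and it was 1 of 65 pathway genes examined.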
